A study of Mus musculus with 6 samples.

Results

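The 9 genes described here encode enzymes with which the liver breaks down tyrosine, tryptophan, serine and histidine. They were chosen by name, as the rows of the deposited count table with the symbols Tat, Tdo2, Hpd, Hgd, Fah, Sds, Hal, Uroc1 and Ftcd, and make up 9 of 32212 rows. Poly(A)-selected liver RNA came from male C57BL/6 mice of 2 yr on normal chow, 3 wild-type (WT) and 3 chromogranin A knockout (CgA-KO), with 1 library per liver. CgA is a prohormone of endocrine and nerve cells, encoded by the gene Chga. Chga had 0 counts in every library, WT included, so it could not check the genotype labels. Neither the hour of collection nor the feeding state of the mice is in the labels.

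The liver takes up amino acids after meals and during fasting and strips them of nitrogen, which leaves as urea, while the carbon is burned or made into glucose. The enzymes at the entry of these routes, such as Tat, Tdo2, Sds and Hal, are known for transcripts that follow glucocorticoids, glucagon, insulin and dietary protein. Most of the routes are used chiefly by hepatocytes, and Sds and Hal are known as enzymes of the periportal part of the lobule.

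Of the 9 enzymes, 0 passed an adjusted p-value of 0.05 in the quasi-likelihood test of edgeR (Benjamini-Hochberg over all genes tested), which called 12.4% of the 13867 genes. Sds (serine to pyruvate) and Hal (histidine to urocanate) had the largest differences, with CgA-KO levels 1.86 and 1.83 times those of WT and adjusted p-values of 0.0993 and 0.0664 by edgeR. DESeq2, the tool that the study's methods name, gave both an adjusted p-value under 0.05 and none of the other enzymes. The enzymes that follow Hal in the histidine route, Uroc1 and Ftcd, were not higher in CgA-KO livers, with fold values of 0.81 and 0.87. Tat, Tdo2, Hpd, Hgd and Fah lay between fold values of 0.94 and 1.43.

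Among the enzymes chosen by name, those of the histidine route parted most. The stretches of DNA before the starts of their 3 genes are therefore shown. Each is the 250 bases upstream of the RefSeq transcription start (assembly GRCm38.p6, plus strand, 5′ to 3′), and capitals mark motif matches found by a script on either strand. Hal was read at chr10:93488518-93488767, Uroc1 at chr6:90333039-90333288 and Ftcd at chr10:76575398-76575647.
Hal: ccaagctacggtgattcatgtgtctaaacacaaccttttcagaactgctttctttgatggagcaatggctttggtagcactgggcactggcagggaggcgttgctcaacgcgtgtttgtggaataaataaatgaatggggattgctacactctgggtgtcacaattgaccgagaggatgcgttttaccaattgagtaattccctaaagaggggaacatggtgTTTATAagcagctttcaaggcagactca
Uroc1: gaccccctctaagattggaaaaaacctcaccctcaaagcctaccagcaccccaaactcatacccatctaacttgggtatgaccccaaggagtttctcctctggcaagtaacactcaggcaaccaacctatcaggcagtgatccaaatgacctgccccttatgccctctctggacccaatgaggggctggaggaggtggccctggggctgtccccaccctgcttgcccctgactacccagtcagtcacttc
Ftcd: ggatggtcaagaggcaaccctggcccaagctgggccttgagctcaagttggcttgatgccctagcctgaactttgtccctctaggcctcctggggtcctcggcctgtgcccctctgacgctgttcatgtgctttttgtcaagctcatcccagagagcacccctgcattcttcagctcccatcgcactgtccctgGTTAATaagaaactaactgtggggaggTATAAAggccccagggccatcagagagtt
Searches were made for TATAAA (the TATA box), AGAACA (a half-site of the glucocorticoid receptor), TGTTTAC (a forkhead motif), GTTAAT (an HNF1 half-site), TGACGT (the core of the cAMP response element) and CACGTG (an E-box), on both strands, and no matches overlapped. The Hal window held TATAAA on the opposite strand, beginning 28 bases before the start. The Ftcd window held TATAAA on the given strand at 29 bases and GTTAAT at 56 bases before the start. The Uroc1 window held 0 matches.

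RefSeq's table matched 8 of the 9 enzymes, all but Sds. The windows of Tdo2 (chr3:81975729-81975978) and Fah (chr7:84605943-84606192) lay inside the gene spans given below, which come from GENCODE. For both genes the RefSeq start lies downstream of the GENCODE start. TATAAA stood in 4 of the 8 windows (Ftcd, Hal, Hgd and Tdo2) and in 12.4% of all 32851 windows of the same length. Its position differed, beginning 229 bases before the start in Tdo2 and 139 in Hgd, against 28 in Hal and 29 in Ftcd. GTTAAT stood in 1 of the 8 (Ftcd) and in 6.43% of all windows. The receptor half-site, the forkhead motif, the cAMP core and the E-box were in 0 of the 8 windows, against 16.1%, 3.17%, 6.47% and 6.02% of all windows. A match or its absence describes these letters in this window and says nothing of what binds there.

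Levels are given as CPM, a gene's share of its library's counts rescaled with the TMM factors of edgeR, in WT replicates 1, 2 and 3 and then in CgA-KO replicates 1, 2 and 3. Library totals ran from 10558616 counts in WT replicate 1 to 31087453 in WT replicate 2. A count of 3 corresponded to 0.0965 to 0.284 CPM before rescaling with the TMM factors. The lowest count of any of the 9 genes in any library was 1206, so depth did not limit what could be seen of them.

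Hal, histidine ammonia-lyase, takes the amino group from histidine in the entry step of the route. It lies at chr10:93488768-93519304 of GRCm38 (plus strand, 20 exons in the principal transcript). WT livers had 108.0, 179.5 and 203.6 CPM and CgA-KO livers had 337.1, 298.0 and 265.6. Every CgA-KO library was above every WT library, and WT replicate 1 was the lowest by a wide margin. The means were 163.7 ± 49.7 and 300.2 ± 35.8 CPM (SD, n = 3 each). The log2 fold change was 0.87 ± 0.27 (SE), with a 95% confidence interval from 0.26 to 1.48, a p-value of 0.0101 by edgeR's quasi-likelihood test and an adjusted p-value of 0.0664. DESeq2 gave 0.86 and an adjusted p-value of 0.0130. Without WT replicate 1 edgeR's log2 fold change was 0.68, the lowest when any library was left out.

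Uroc1, urocanase, handles the product of Hal and lies at chr6:90333284-90364551 (plus strand). WT livers had 361.0, 314.4 and 411.7 CPM and CgA-KO livers had 338.7, 300.9 and 241.4. The ranges overlapped, with CgA-KO replicate 3 lowest. The log2 fold change was -0.30 ± 0.23 (SE), with an interval from -0.82 to 0.21 and an edgeR adjusted p-value of 0.415. Ftcd, which passes the formimino group of histidine to tetrahydrofolate further down the route, lies at chr10:76575648-76590338 (plus strand). Its levels were 319.4, 248.9 and 321.8 CPM in WT and 302.7, 233.9 and 238.6 CPM in CgA-KO livers, again with overlap. The log2 fold change was -0.20 ± 0.22 (SE), with an interval from -0.70 to 0.30 and an edgeR adjusted p-value of 0.597.

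Because Hal and Uroc1 were counted in the same library, their ratio does not depend on the scaling between libraries. Hal over Uroc1 counts was 0.299, 0.571 and 0.494 in WT and 0.995, 0.990 and 1.10 in CgA-KO livers. The highest WT ratio was below the lowest CgA-KO ratio, a mean difference of 1.23 on the log2 scale. Hal over Ftcd was 0.338, 0.721 and 0.633 in WT and 1.11, 1.27 and 1.11 in CgA-KO livers, a log2 difference of 1.12. Hal over Amdhd1, whose enzyme acts between Uroc1 and Ftcd, was 1.96, 1.398 and 1.53 in WT and 2.92, 2.01 and 2.56 in CgA-KO livers, a log2 difference of 0.61. For each of these 3 ratios an exact two-sided permutation test gave p = 0.1, the smallest that 3 livers against 3 allow, and 0.14 after Benjamini-Hochberg adjustment over 7 ratios. The 7 pairs were chosen after the values had been seen.

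**Figure D1:**
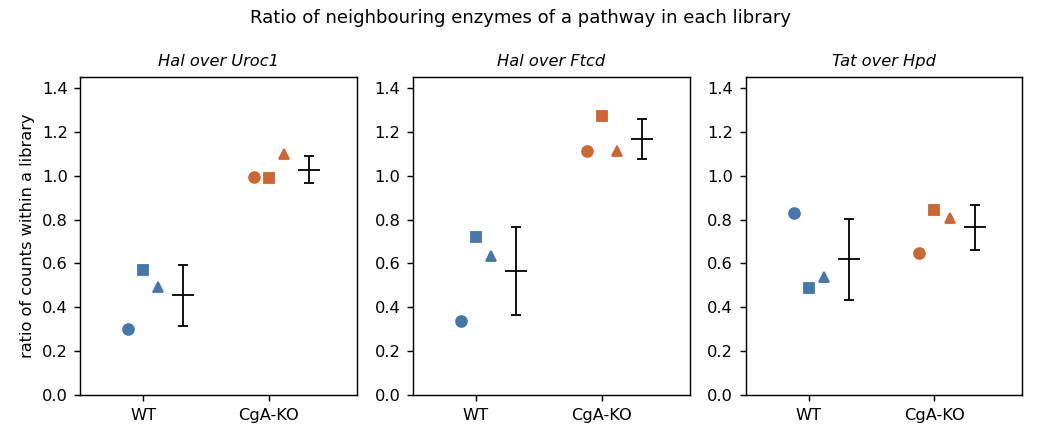
Ratio of the counts of 2 enzymes of the same route within each library, with points for single livers (circle, square and triangle for replicates 1, 2 and 3; blue WT, orange CgA-KO) and the mean ± SD of 3 livers in black. Hal over Uroc1 and Hal over Ftcd show no overlap between the genotypes, while Tat over Hpd overlaps.

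Sds, serine dehydratase, turns serine into pyruvate and ammonia. It lies at chr5:120476526-120483932 (plus strand, 9 exons). WT livers had 118.9, 95.68 and 141.4 CPM and CgA-KO livers had 169.7, 332.6 and 159.2. The genotypes did not overlap, but CgA-KO replicate 2 was far above the other CgA-KO livers, which lay just over the highest WT liver. The means were 118.7 ± 22.9 and 220.5 ± 97.2 CPM (SD, n = 3 each). The log2 fold change was 0.89 ± 0.32 (SE), with an interval from 0.18 to 1.61, a p-value of 0.0201 by edgeR's quasi-likelihood test and an adjusted p-value of 0.0993. DESeq2 gave 0.87 and an adjusted p-value of 0.0379. Without CgA-KO replicate 2 edgeR's log2 fold change was 0.50, with an adjusted p-value of 0.231.

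Tat, tyrosine aminotransferase, opens the tyrosine route by removing the amino group. It lies at chr8:109990437-109999803 (plus strand, 12 exons). WT livers had 775.7, 715.5 and 636.0 CPM and CgA-KO livers had 782.2, 1390 and 879.4. The genotypes did not overlap, yet WT replicate 1 and CgA-KO replicate 1 were nearly level, and CgA-KO replicate 2 was again the highest. Its log2 fold change was 0.52 ± 0.28 (SE), with an interval from -0.11 to 1.16 and an edgeR adjusted p-value of 0.255. Without CgA-KO replicate 2 it was 0.27. Tat, Sds and Hal were the 3 of 9 enzymes without overlap between the genotypes, which was also seen in 33.6% of all genes tested. For each of the 3, the exact two-sided permutation test gave p = 0.1, the smallest this design allows. Before adjustment, 2 of the 9 (Sds and Hal) and 29.1% of all genes had p-values under 0.05 in edgeR. DESeq2 called 2 of the 9 at an adjusted p-value under 0.05 and 18.8% of the genes for which it gave one.

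The next enzymes of the tyrosine route differed by less than their spread. Hpd, which makes homogentisate, lies at chr5:123171807-123182727 (minus strand) and had 935.3, 1469 and 1177 CPM in WT and 1206, 1651 and 1090 CPM in CgA-KO livers. Hgd, which opens the ring of homogentisate, lies at chr16:37580153-37632020 (plus strand) and had 268.7, 388.5 and 325.0 CPM in WT and 295.1, 340.8 and 310.8 CPM in CgA-KO livers. Fah, which makes fumarate and acetoacetate in the last step, lies at chr7:84585159-84606722 (minus strand) and had 325.0, 450.6 and 412.6 CPM in WT and 302.0, 522.9 and 293.1 CPM in CgA-KO livers. All 3 genes overlapped between the genotypes. Their log2 fold changes were 0.14 (interval -0.50 to 0.78), -0.05 (-0.55 to 0.45) and -0.09 (-0.73 to 0.56), with edgeR adjusted p-values of 0.788, 0.904 and 0.873. Each interval spans 0 and reaches to both sides of it. Tat over Hpd within a library was 0.829, 0.487 and 0.540 in WT and 0.649, 0.842 and 0.807 in CgA-KO livers, which overlapped (exact permutation p = 0.3, adjusted 0.3).

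Tdo2, tryptophan dioxygenase, opens the indole ring of tryptophan on the way to kynurenine. It lies at chr3:81957090-81976202 (minus strand). WT livers had 956.3, 1361 and 1108 CPM and CgA-KO livers had 1111, 1017 and 1458. The highest and the lowest of these belonged to CgA-KO replicate 3 and WT replicate 1, and the genotypes overlapped. The log2 fold change was 0.07 ± 0.26 (SE), with an interval from -0.53 to 0.66 and an edgeR adjusted p-value of 0.900. Sds over Tdo2 within a library overlapped between the genotypes (exact permutation p = 0.3, adjusted 0.3).

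**Figure D2:**
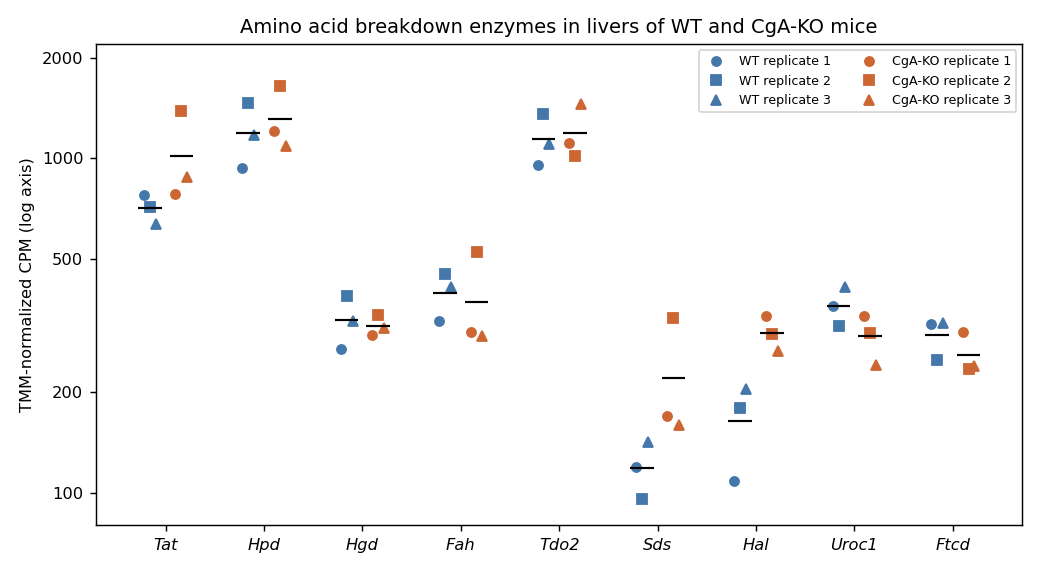
TMM-normalized CPM of the 9 enzymes on a log axis, with points for single livers (circle, square and triangle for replicates 1, 2 and 3; blue WT, orange CgA-KO) and a bar at the mean of 3 livers. Tat, Sds and Hal show no overlap between the genotypes, and CgA-KO replicate 2 (orange square) is the highest point of Tat, Sds, Hpd and Fah.

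**Figure D3:**
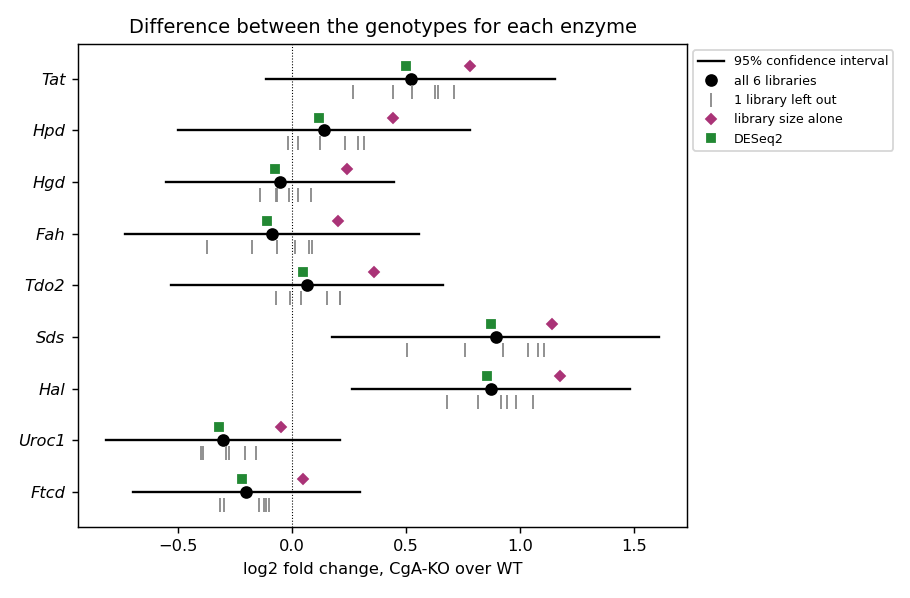
Fitted log2 fold change of CgA-KO over WT for each enzyme (black dot, edgeR) with its 95% confidence interval, above values with 1 library left out (grey ticks) and below those from DESeq2 (green square) and from scaling by library size alone (purple diamond). The intervals of Sds (0.18 to 1.61) and Hal (0.26 to 1.48) lie above 0, and the other 7 cross it.

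The direction of the smaller differences depended on the scaling. With TMM, 5 of the 9 enzymes were above 0 and 4 were below, with a median log2 fold change of 0.07, against -0.01 for all genes tested. With library size alone, 8 were above 0 and the median was 0.36, but the median of all genes also moved, to 0.26. Together the 9 enzymes took 0.395% to 0.443% of the counts of the WT libraries and 0.534% to 0.670% of those of the CgA-KO libraries. On the TMM scale the sums were 4168, 5223 and 4737 CPM in WT and 4844, 6087 and 4936 CPM in CgA-KO livers, which overlapped.

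Compared per length of the principal transcript, Hpd was the most abundant of the 9 in both genotypes, with 850.3 ± 190.3 CPM per kb in WT and 937.1 ± 210.9 in CgA-KO livers (SD, n = 3 each). Hal was the least abundant in both, with 30.8 ± 9.35 and 56.4 ± 6.73 CPM per kb, and did not overlap its neighbour in either order. In WT livers the order below Hpd was Tdo2, Tat, Fah, Hgd, Ftcd, Uroc1 and Sds, and neighbours overlapped except Hpd and Tdo2, Ftcd and Uroc1, and Sds and Hal. In CgA-KO livers Tat stood above Tdo2, with which it overlapped, and Sds, at 171.2 ± 75.5 CPM per kb, stood above Ftcd and Uroc1. Ftcd and Uroc1 were at 133.7 ± 19.9 and 87.1 ± 14.6 CPM per kb, and Sds overlapped with Ftcd.

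The 61 other genes of amino acid breakdown on a list held 59 that were tested, with Dao and Tdh too low. EdgeR's test called 6 of the 59, 3 higher and 3 lower in CgA-KO livers, beside 12.4% of all genes. The 59 had a median log2 fold change of -0.24, with 17 above 0 and 42 below, beside 6846 and 7021 of all genes. With library size alone 38 were above 0 and 21 below, beside 9784 and 4083 of all genes. The calls with library size alone were 5 higher and 1 lower, beside 1293 and 200 of all genes. DESeq2 called 3 higher and 11 lower, beside 1610 and 991 of all genes. Without WT replicate 2, WT replicate 3, CgA-KO replicate 1 or CgA-KO replicate 3, edgeR's calls fell to 2, Got1 and Kyat1.

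The transaminase Got1, which links aspartate to glutamate in the cytosol, had the largest rise. It had 87.6, 124.6 and 111.1 CPM in WT and 320.6, 356.9 and 300.5 CPM in CgA-KO livers. Its log2 fold change was 1.60 ± 0.22 (SE), with an edgeR adjusted p-value of 0.00513. EdgeR's test called none of the other 4 genes of its list, Gpt, Gpt2, Got2 and Glud1, while DESeq2 called Glud1 lower (log2 fold change -0.52, DESeq2 adjusted p = 0.0341). Tat over Got1 within a library was 8.86, 5.74 and 5.72 in WT and 2.44, 3.90 and 2.93 in CgA-KO livers, without overlap (exact permutation p = 0.1, adjusted 0.14).

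Around Tdo2, edgeR's test called 3 of 10 other genes of the tryptophan route, 1 higher and 2 lower, beside 12.4% of all genes. DESeq2 called 5 of the 10, 1 higher and 4 lower, beside 18.8% of all genes, with Haao and Kyat3 as the additional calls. Kyat1, a kynurenine aminotransferase, had 120.6, 76.6 and 107.9 CPM in WT and 31.8, 39.4 and 29.5 CPM in CgA-KO livers (log2 fold change -1.60 ± 0.23 SE, edgeR adjusted p = 0.00553). Acmsd, which steers the route away from NAD synthesis, had 9.0, 12.6 and 15.6 CPM in WT and 28.5, 21.0 and 34.3 CPM in CgA-KO livers (1.16 ± 0.26 SE, edgeR adjusted p = 0.0224). Ido2, an indoleamine dioxygenase, was lower, with a log2 fold change of -0.82 ± 0.23 SE (edgeR adjusted p = 0.0495). Haao, which makes the substrate of Acmsd, had a log2 fold change of -0.68 (interval -1.18 to -0.18, edgeR adjusted p = 0.0778, DESeq2 adjusted p = 0.0101). The ratio of Acmsd to Haao counts was 0.0328, 0.0307 and 0.0447 in WT and 0.138, 0.0975 and 0.153 in CgA-KO livers, without overlap (exact permutation p = 0.1, adjusted 0.14).

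Of the other genes of phenylalanine and tyrosine breakdown, Pcbd1, which recycles a pterin cofactor, was called by edgeR, with 171.5, 270.0 and 171.7 CPM in WT and 103.9, 109.6 and 117.8 CPM in CgA-KO livers (log2 fold change -0.89 ± 0.24 SE, edgeR adjusted p = 0.0418). Qdpr and Gstz1, of the same list, were not called by edgeR, while DESeq2 called Qdpr lower (log2 fold change -0.72, DESeq2 adjusted p = 0.0468). Apart from Sds, edgeR's test called 1 of 13 tested genes of serine, glycine and threonine breakdown, which was higher, beside 12.4% of all genes. DESeq2 called 4 of the 13, 1 higher and 3 lower (Gcat, Prodh2 and Pipox), beside 18.8% of all genes. The gene that both called was Gldc, a subunit of the glycine cleavage system, with 30.4, 60.1 and 55.2 CPM in WT and 127.5, 75.1 and 115.9 CPM in CgA-KO livers (1.12 ± 0.30 SE, edgeR adjusted p = 0.0430). Amt and Gcsh, other subunits of that system, were called by neither tool.

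Of the other histidine genes, 0 of 3 were called by edgeR or DESeq2, and Mthfd1 had the smallest p-value (log2 fold change -0.25, interval -0.77 to 0.27, edgeR adjusted p = 0.516). Amdhd1 had 0.21 (interval -0.53 to 0.96). Of 18 genes of branched-chain amino acid breakdown 0 were called by either tool, beside 12.4% of all genes by edgeR and 18.8% by DESeq2. With TMM 17 of the 18 were below 0, beside 7021 of all 13867 genes. With library size alone 12 were above 0, beside 9784 of all 13867 genes. Hibadh, of the valine route, had the smallest p-value among them (log2 fold change -0.44, interval -0.97 to 0.10, edgeR adjusted p = 0.257). Of 6 lysine and proline genes edgeR's test called 0 with TMM, with Aass, which opens the lysine route, at 0.63 (interval 0.05 to 1.21, edgeR adjusted p = 0.143). With library size alone edgeR called 1, Aass, higher, and DESeq2 called 1, Gcdh, lower (log2 fold change -0.53, DESeq2 adjusted p = 0.0483).

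**Figure D4:**
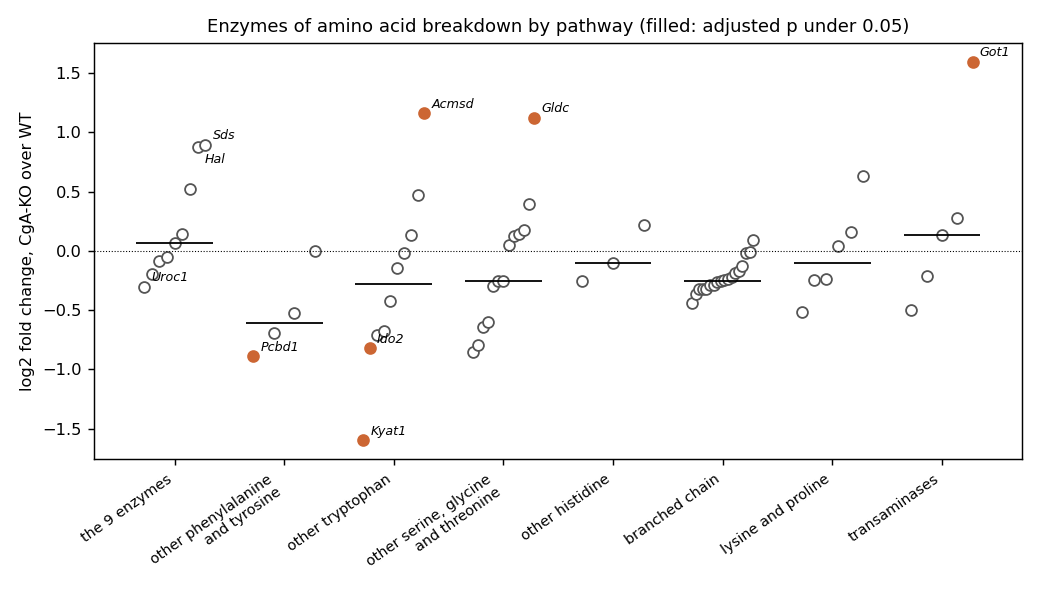
Fitted log2 fold change (CgA-KO over WT) of each tested gene, grouped by route, with filled points for an edgeR adjusted p-value under 0.05 and a line at the median of the group. The 9 enzymes hold 0 filled points, and the other groups hold 6, with Got1 highest and Kyat1 lowest.

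The livers also differed in what other cells left in the RNA, and in bulk RNA fewer cells of a type and less RNA per cell cannot be told apart. The calls in each list below stand beside 12.4% of all genes called by edgeR and 18.8% by DESeq2. Of 9 hepatocyte markers tested (Alb, Apoa1 and others) edgeR's test called 0, with a median log2 fold change of -0.20. Of 10 Kupffer cell markers 9 were called higher, and their sum was 121.6 to 320.4 CPM in WT and 1293 to 1921 CPM in CgA-KO livers. Of 8 tested T and NK cell markers 5 were called higher, with sums of 3.45 to 17.6 CPM in WT and 32.8 to 205.1 CPM in CgA-KO livers. Of 8 neutrophil markers 4 were tested, and 3 of these (S100a8, S100a9 and Retnlg) were called higher. Ngp was tested and not called, and Mpo, Ly6g, Elane and Camp did not pass the filter. The sum of all 8 was 2.54 to 10.4 CPM in WT and 29.4 to 333.9 CPM in CgA-KO livers. In CgA-KO replicate 2 the largest parts of that sum were Ngp (92.1 CPM), S100a9 (81.5), Mpo (66.8) and S100a8 (51.0). Mpo was at 0 in every WT library and in CgA-KO replicate 1. CgA-KO replicate 2 held 2107 counts of Mpo and CgA-KO replicate 3 held 15. Ly6g, of the same list, had 0, 4 and 0 counts in WT and 1, 16 and 3 in CgA-KO livers. The sums of the T and NK cell list and the neutrophil list were highest in CgA-KO replicate 2, the liver with the highest Sds and Tat. The stellate, cholangiocyte, periportal and pericentral sums were also highest in that liver (471.2, 73.4, 11300 and 13400 CPM). The hepatocyte, Kupffer, B and plasma cell, endothelial and erythroid sums were highest in other libraries. Stellate cell markers (3 of 8 called higher, 163.6 to 224.8 CPM in WT and 302.9 to 471.2 CPM in CgA-KO livers) also moved. Of 10 periportal and 10 pericentral hepatocyte genes, 0 and 1 (Rhbg, higher) were called, with sums that overlapped between the genotypes. Of the remaining lists, 0 of 6 B and plasma cell, 0 of 5 cholangiocyte, 1 of 3 erythroid (lower) and 2 of 6 endothelial markers (1 higher, 1 lower) were called by edgeR. Among all these lists DESeq2 also called Ttr lower and Lck, Cd2, Stab2, Pecam1, Hba-a1 and Oat higher. The part of these cells in the values of the enzymes was not tested.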

How the data were processed

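Liver mRNA from 6 mice, 3 of each genotype, was sequenced with 1 library per mouse. The authors quantified reads with Salmon 1.4.0 against GRCm38 transcripts and deposited a table of whole-number counts for 32212 genes, not scaled for depth; how transcripts were summed to genes is not given in the sources used here. All 6 columns matched a label.

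Genes were filtered with filterByExpr of edgeR 4.0.16 (R 4.3.3, minimum count 10), which kept 13867. TMM scaling, a robust quasi-likelihood fit without covariates, two-sided tests and Benjamini-Hochberg adjustment over all tested genes followed. SE is the log2 fold change over the square root of F; intervals use the moderated degrees of freedom. Floors of 3 counts cover counting error only. Replicates of a genotype differed by more than sampling noise (chi-square per degree of freedom 31.9 to 202). Transcript lengths and coordinates come from GENCODE M21 (GRCm38), promoter sequences from RefSeq. Alternatives were DESeq2 1.42.0, limma-voom (limma 3.58.1), library size alone, upper-quartile factors, 2 other filters, a replicate block, a threshold of 0.01 and leaving out each library. The members and gene lists were chosen with earlier results of these data known. Of each list, the gene with the smallest p-value and the one with the largest change are named, with called genes; Qdpr, Gstz1, Haao, Amdhd1, Amt, Gcsh, Gpt, Gpt2, Got2, Glud1 and the genes that only DESeq2 called were named in addition, after their values were seen. Some genes under this rule are not reported here.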

Additional observations from a re-analysis of the deposited data

How the results depend on the processing

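Over all 9 enzymes, edgeR's adjusted p-value under 0.05 called 0, and so did limma-voom, both other filters, the 0.01 threshold, the replicate block and each fit without 1 library (lowest 0, highest 0). DESeq2 called 2 (Sds and Hal), library size alone 1 (Hal, adjusted p = 0.0227) and upper-quartile factors 1 (Hal, adjusted p = 0.0482). Over all genes edgeR called 1726, from 394 without WT replicate 3 to 2126 without WT replicate 1 when 1 library was left out, and DESeq2 called 2601. The 6 calls among the other amino acid genes became 14 with DESeq2, 2 at the 0.01 threshold, 4 with the replicate block and 2 to 7 without 1 library; they were 2 without WT replicate 2, WT replicate 3, CgA-KO replicate 1 or CgA-KO replicate 3. Got1 and Kyat1 were called in 13 of 13 alternative fits, Acmsd in 9, Gldc in 7, Pcbd1 in 6 and Ido2 in 3. The median log2 fold change of the 9 enzymes, 0.07, was 0.36 with library size alone and -0.02 to 0.21 without 1 library. Of 117 single-enzyme values, 12 changed sign, in Tdo2, Hpd, Hgd, Fah and Ftcd. Library size alone gave 0.24 for Hgd, 0.20 for Fah and 0.049 for Ftcd, and upper-quartile factors 0.0093 for Hgd; leaving out 1 library gave -0.071 to 0.211 for Tdo2, -0.016 to 0.315 for Hpd, -0.139 to 0.086 for Hgd and -0.373 to 0.087 for Fah. The cause of these moves was not tested. Livers with the same replicate number deviated with correlations of 0.199, 0.0127 and -0.0659 over 13867 genes, so the numbers were not taken to pair them. With 3 livers per genotype an exact test cannot go below p = 0.1.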

Other observations

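Genes known to follow hormones, feeding and fasting were listed beside the enzymes. EdgeR's test called 2 of 20, both higher in CgA-KO livers, beside 12.4% of all genes. DESeq2 called 4 of 20, beside 18.8% of all genes. These were the same 2 and, lower in CgA-KO livers, Gcgr (log2 fold change -0.70, DESeq2 adjusted p = 0.00422) and Cebpa (-0.90, DESeq2 adjusted p = 0.0211). Sgk1, a kinase gene that glucocorticoids induce, had a log2 fold change of 0.98 ± 0.19 (SE, adjusted p = 0.0145), and Igfbp1, an insulin-repressed binding protein of growth factors, had 3.16 ± 0.58 (SE, adjusted p = 0.0125). Over 13 alternative fits Sgk1 was called in 11 and Igfbp1 in 10. Pck1 and G6pc, enzymes of glucose synthesis that answer to the same hormones, had log2 fold changes of 0.08 (interval -0.62 to 0.77) and 0.14 (-0.58 to 0.87), with edgeR adjusted p-values of 0.897 and 0.809. Fkbp5, Tsc22d3 and Per1, of the same list as Sgk1, were called by neither tool. Their log2 fold changes were 0.63, 0.009 and -0.31, with edgeR adjusted p-values of 0.112, 0.986 and 0.655. Gcgr, Cebpa, Pck1, G6pc, Fkbp5, Tsc22d3 and Per1 were named after their values were seen.

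Of 13 genes of the circadian clock and its outputs edgeR's test called 8, beside 12.4% of all genes. DESeq2 called the same 8 and Ciart, lower, beside 18.8% of all genes. Arntl, Npas2 and Clock were higher in CgA-KO livers, with log2 fold changes of 4.44, 4.32 and 1.03. Per2, Per3, Nr1d2, Dbp and Tef were lower, with -2.74, -3.16, -1.15, -2.80 and -1.70. Their adjusted p-values ran from 0.00164 to 0.0196 (edgeR). The part of the hour of collection in the levels of the 9 enzymes was not tested, since the labels do not give it.

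Among 9935 genes of at least 5 CPM on average, the gene whose centred log2 CPM profile over the 6 libraries was closest to that of Hal was Fbxo32, with a root-mean-square difference of 0.118. For Sds it was Sult5a1 (0.146) and for Tat Pcolce (0.0815). The others given here were Adora1 for Hpd (0.0408), Rabif for Hgd (0.0296), Ddrgk1 for Fah (0.0194), Cep164 for Uroc1 (0.0327) and Polg for Ftcd (0.0266). Within the 9 enzymes, the closest pair was Uroc1 and Ftcd (0.128), and Hal was 0.466 from its nearest, Sds. Among the 9935 genes, Ftcd ranked 85 by closeness to Uroc1, and Uroc1 ranked 185 by closeness to Ftcd. Sds ranked 1340 by closeness to Hal. These are descriptions over 6 libraries that share their scaling.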
